A study of Mus musculus with 18 samples.

Results

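The comparison described here set NKT1 cells against NKT17 cells of the WT thymus. Its members were the 3 libraries labelled WT NKT1 and the 3 labelled WT NKT17, which are 6 of the 18 RNA-seq libraries of the series, and all genes of the count table were considered. Both belong to the invariant natural killer T (iNKT) lineage and were sorted by flow cytometry from thymocytes of WT mice on the BALB/c background. By the study's methods, NKT1 cells were bound by the CD1d tetramer loaded with alpha-galactosylceramide, low for ICOS and positive for CD49a. NKT17 cells were tetramer positive, CD49a negative, high for ICOS and positive for Sdc-1 (syndecan-1). WT NKT2 cells (3 libraries, sorted without CD49a and Sdc-1, high for ICOS, CD4 and TCR beta) and the same subsets of SKG mice, which are BALB/c mice with a hypomorphic mutation of Zap70, served to place the result. The age and sex of the mice and the number of animals behind a library are not given in the sources used here. Sex-linked transcripts, given below, set WT replicate 1 apart from WT replicates 2 and 3, so replicate 1 came from other animals than these. Beyond this, nothing says that libraries came from separate animals. The p-values use the spread between libraries of the same group, estimated over all 18 libraries, part of which may be technical.

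iNKT cells recognize lipid antigens on CD1d through a T cell receptor (TCR) with an invariant alpha chain and leave the thymus already programmed as effector cells. NKT1 cells depend on the transcription factor T-bet (Tbx21), respond to IL-15 and IL-12, make IFN-gamma and carry receptors shared with natural killer (NK) cells. NKT17 cells respond to IL-23, IL-1 and IL-7 and make IL-17A and IL-22, much as other type 17 lymphocytes do.

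Levels are in CPM, reads adjusted for sequencing depth with TMM factors, and are given for replicates 1, 2 and 3 in that order or as mean ± SD with n = 3. CPM takes no account of gene length, so levels are compared between libraries and not between genes. The WT NKT1 libraries held 5481321 to 8895917 counts and the WT NKT17 libraries 5054560 to 6803776. Differences are log2 fold changes of NKT1 over NKT17 from edgeR, so positive values are higher in NKT1, with the standard error (SE) of the fit. A gene was called at a fold change of at least 1.5 and an adjusted p under 0.1, from edgeR's quasi-likelihood test with the Benjamini-Hochberg method over all 11118 tested genes. Where a group had no count of a gene, the fold is a lower bound against 3 counts over the 3 libraries of that group. Where it had 1 to 3 counts in all, the ratio is given with its exact counting interval. The reads have no molecular identifiers, so bounds and intervals cover counting error only. Where leaving out 1 of the 6 libraries moved a fitted fold change by over 1.5-fold, the value without that library follows it, which was so for 29 of 145 called genes given with a fitted value, 19 of them with a mean under 2 CPM in one subset. In sorted bulk samples, fewer cells that express a gene and less RNA per cell cannot be told apart. By their transcripts, the libraries differed in sex in the same way in both subsets. Replicate 1 held Xist at 194 CPM in NKT1 and 241 CPM in NKT17 and the summed Y-linked genes Ddx3y, Eif2s3y, Uty and Kdm5d at 0.121 and 0 CPM, while replicates 2 and 3 held Xist at 0 to 0.764 CPM and the Y-linked genes at 195 to 313 CPM.

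The genes by which the subsets are named were examined first. Tbx21 (chromosome 11, 96959385 to 96976645), which encodes T-bet, was at 565, 519.8 and 559 CPM in NKT1 and 0.195, 1.04 and 1.24 CPM in NKT17 (log2 fold change 9.26, SE 0.61, adjusted p 5.09e-08 by edgeR). The NKT1 libraries lay far above the NKT17 libraries, and close together. Ifng, the gene of IFN-gamma, was at 260.4, 123 and 272 CPM in NKT1 and 0.195, 0.174 and 0 CPM in NKT17 (ratio of 2053 in favor of NKT1, 95% counting interval 568 to 16959.7, edgeR adjusted p 3.70e-12). The chemokine receptor gene Cxcr3 was at 726 ± 38.0 CPM in NKT1 and 1.88 ± 1.71 CPM in NKT17 (log2 fold change 8.58, SE 0.53, adjusted p 2.34e-08 by edgeR, and 9.50 without NKT17 replicate 2). Il23r, the gene of the IL-23 receptor, was at 457, 455 and 451 CPM in NKT17 and 0.241, 0 and 0 CPM in NKT1 (ratio of 4348 in favor of NKT17, 95% counting interval 1203 to 35907, edgeR adjusted p 1.26e-17). The 3 NKT17 libraries were nearly equal for Il23r and a single NKT1 library had any count. Of 8 NKT1 marker genes, 7 were called higher in NKT1, beside 11.2% of all tested genes, and none was called lower by edgeR or DESeq2, or was lower at an unadjusted p under 0.05 by edgeR. All 8 NKT17 markers were called lower in NKT1, beside 13.5% of all tested genes. The sort itself used the products of Itga1 (CD49a), Icos and Sdc1, so their differences follow from the gates: Itga1 was at 279.7, 212 and 179 CPM in NKT1 and 0.390, 0 and 0 CPM in NKT17, Icos at 189, 293 and 237 CPM in NKT1 and 1065, 930.0 and 812 CPM in NKT17 and Sdc1 at 0.121, 0.191 and 1.24 CPM in NKT1 and 428, 438 and 399 CPM in NKT17.

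The exception among the NKT1 markers was Klrb1c, which encodes NK1.1 and marks NKT1 cells in mouse strains whose allele the usual antibody binds. Klrb1c was at 44.9, 42.2 and 45.7 CPM in NKT1 and 43.3, 34.1 and 39.4 CPM in NKT17 (log2 fold change 0.19, SE 0.32, adjusted p 0.730 by edgeR), and its libraries overlapped. Klrb1c was at 2.66, 3.32 and 0.485 CPM in NKT2. Both NKT1 and NKT17 libraries thus lay above every NKT2 library for this gene. Gm15987, an annotated neighbor at chromosome 6, 128901222 to 128925047, was at 68.1, 78.4 and 61.2 CPM in NKT17 and 0, 0 and 0 CPM in NKT1 (at least 438-fold higher in NKT17, edgeR adjusted p 2.33e-12). The strand setting of the counting was not given, so reads of Gm15987 and of overlapping lectin genes cannot be told apart.

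Markers of NKT2 cells were compared as well. Gata3, the type 2 factor, was at 235, 304 and 265 CPM in NKT1 and 254, 232 and 318 CPM in NKT17, and its log2 fold change was -0.00 (SE 0.13, edgeR adjusted p 0.995). Zbtb16, the gene of PLZF, was at 139.6, 123 and 224 CPM in NKT17 and 31.8, 34.0 and 44.5 CPM in NKT1 (log2 fold change -2.15, SE 0.20, adjusted p 4.36e-08 by edgeR), with every NKT17 library above every NKT1 library. Il4 was at 21.9, 31.3 and 24.0 CPM in NKT17 and 7.73, 13.0 and 25.3 CPM in NKT1 (log2 fold change -0.77, SE 0.32, adjusted p 0.0861 by edgeR), and here the libraries overlapped. The call of Il4 was lost without NKT1 replicate 1 (log2 fold change -0.42, edgeR adjusted p 0.310), NKT1 replicate 2 (0.206), NKT17 replicate 2 (0.223) or NKT17 replicate 3 (0.120), and in 4 other alternatives. Il17rb, the receptor gene for IL-25, was at 148, 177 and 179.5 CPM in NKT17 and 0.362, 0.955 and 6.02 CPM in NKT1 (log2 fold change -6.20, SE 0.55, adjusted p 1.22e-06 by edgeR, and -5.56 without NKT1 replicate 1 or -8.09 without NKT1 replicate 3). Ccr4, a chemokine receptor gene of type 2 cells, was at 178, 169.9 and 138 CPM in NKT17 and 6.40, 13.4 and 27.6 CPM in NKT1 (log2 fold change -3.39, SE 0.35, adjusted p 4.16e-06 by edgeR, and -4.09 without NKT1 replicate 3). Of 8 NKT2 markers tested, 6 were called lower in NKT1 and 0 higher (0 also at an unadjusted p under 0.05 and by DESeq2, and 1 without NKT17 replicate 2), and the median log2 fold change was -2.06, against -0.01 over all tested genes.

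**Figure D1:**
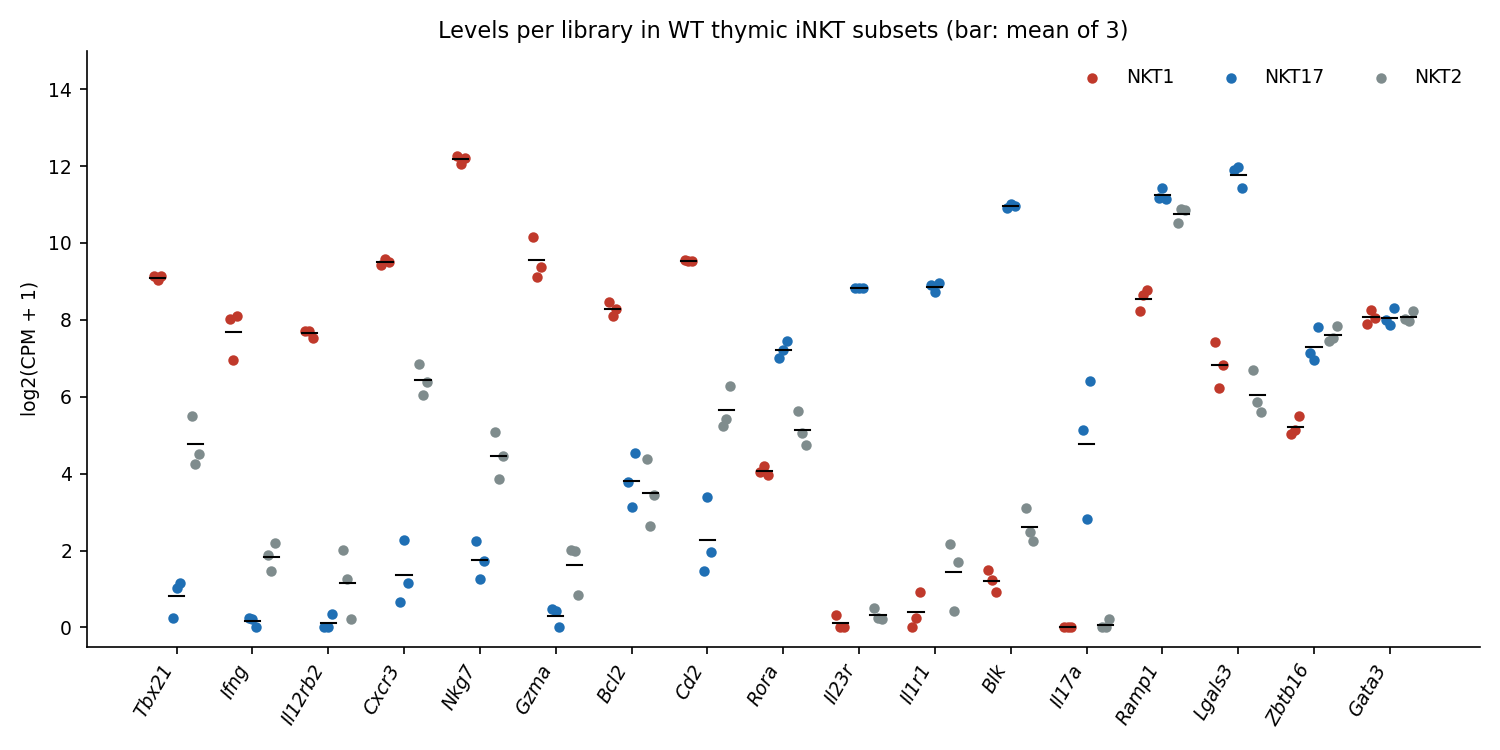
Levels of 17 genes in the 3 libraries of each WT subset, as log2(CPM + 1) on the vertical axis, with NKT1 in red, NKT17 in blue and NKT2 in grey, each point a library and each bar a mean of 3. The first 8 genes are higher in NKT1 and the next 8 in NKT17, with NKT1 and NKT17 means furthest apart for Nkg7 and Blk, while the points of Gata3 (log2 fold change -0.00) mix and those of Il17a spread widely within NKT17.

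The promoters of a few of these genes are shown because 2 families of transcription factors of these cells bind known DNA letters, the ROR element AGGTCA and the T-box element AGGTGTGA. The sequences are the 250 bases before the RefSeq start on build GRCm38.p6, written 5′ to 3′ on the strand of the gene, with matches to these letters or to their reverse complement in capitals. Il23r and Il17a were high in NKT17 and hold AGGTCA, and Nkg7 and Samd3 were high in NKT1 and hold AGGTGTGA. Coordinates of the 4 stretches are chr6:67491856-67492105, minus strand for Il23r, chr1:20730655-20730904, plus strand for Il17a, chr7:43436888-43437137, plus strand for Nkg7 and chr10:26229457-26229706, plus strand for Samd3.
Il23r: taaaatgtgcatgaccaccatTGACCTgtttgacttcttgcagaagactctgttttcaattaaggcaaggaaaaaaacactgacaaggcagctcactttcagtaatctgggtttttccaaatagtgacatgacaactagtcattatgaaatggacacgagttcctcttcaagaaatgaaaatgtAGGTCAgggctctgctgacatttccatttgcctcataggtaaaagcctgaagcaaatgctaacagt
Il17a: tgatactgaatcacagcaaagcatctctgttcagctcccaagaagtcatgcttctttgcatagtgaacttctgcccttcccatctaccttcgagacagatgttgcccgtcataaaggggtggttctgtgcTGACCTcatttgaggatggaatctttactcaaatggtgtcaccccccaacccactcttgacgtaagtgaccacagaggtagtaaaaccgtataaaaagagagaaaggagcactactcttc
Nkg7: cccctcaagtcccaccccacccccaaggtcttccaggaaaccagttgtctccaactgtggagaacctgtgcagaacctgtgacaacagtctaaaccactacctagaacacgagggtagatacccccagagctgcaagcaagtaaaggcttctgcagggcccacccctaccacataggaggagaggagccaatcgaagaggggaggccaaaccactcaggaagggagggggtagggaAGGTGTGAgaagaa
Samd3: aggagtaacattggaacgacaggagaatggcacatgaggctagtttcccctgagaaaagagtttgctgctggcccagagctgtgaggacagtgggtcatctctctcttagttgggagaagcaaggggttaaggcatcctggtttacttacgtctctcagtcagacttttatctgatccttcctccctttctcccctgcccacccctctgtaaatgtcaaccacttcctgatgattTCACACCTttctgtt
Il23r has 2 matches, starting 66 and 229 bases before the start site, and Il17a has 1, starting 120 bases before it. The matches of Nkg7 and Samd3 begin 14 and 15 bases before the start site. These 4 genes were picked because they hold the letters, and the shares below carry no test. Over 300 bases (250 before to 50 after the start) and on both strands, AGGTCA occurred in 17.1% of promoters of genes called higher in NKT1, 17.2% of those called higher in NKT17, 14.7% of tested genes and 18.1% of all promoters. AGGTGTGA occurred in 1.12% and 0.642% of the 2 sets of called genes, 0.981% of tested genes and 1.48% of all promoters. The variant AGGTGTTA occurred in 0.560%, 0.183%, 0.335% and 0.507%, and the AP-1 letters TGANTCA in 7.28%, 6.97%, 5.65% and 8.97%. A match is a description of letters and not a bound site.

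Over all genes, 2748 (24.7% of those tested) were called between the subsets, 1243 higher and 1505 lower in NKT1. Genes with no count in the other of the 2 compared subsets were more numerous on the NKT17 side, NKT2 being left aside. The NKT17 libraries also held more genes with a count (12099 to 13071) than the NKT1 libraries (11657 to 11945). Of the genes called lower in NKT1, 176 had no count in any NKT1 library, and of those called higher, 38 had none in any NKT17 library. The fold, or its bound or counted ratio where one group had few reads, was at least 16 for 303 genes called lower and 185 called higher. Differences of abundant transcripts ran the other way. Genes called higher made up 23.2 ± 0.745% of the CPM of NKT1 libraries and 8.99 ± 0.529% of that of NKT17 libraries, while genes called lower made up 4.99 ± 0.0700% and 13.6 ± 0.280%. Libraries of the 2 subsets did not overlap for 90.99% of the genes called higher and 91.5% of those called lower, beside 34.08% of all tested genes.

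Among the largest differences on the NKT1 side was Kcnj8, which encodes the pore of an ATP-sensitive potassium channel. Kcnj8 was at 216, 121 and 164 CPM in NKT1 and 0, 0 and 0 CPM in NKT17 (at least 1058-fold higher in NKT1, edgeR adjusted p 5.19e-12). Ly6c1, which encodes the surface protein Ly6C, was at 1008, 751 and 949 CPM in NKT1 and 0.390, 0.348 and 0.549 CPM in NKT17 (log2 fold change 10.93, SE 0.36, adjusted p 8.38e-14 by edgeR). Ms4a4b, a membrane protein of T and NK cells, was at 2809, 2669 and 2859 CPM in NKT1 and 6.64, 10.4 and 8.92 CPM in NKT17 (log2 fold change 8.31, SE 0.21, adjusted p 4.43e-17 by edgeR). These 3 genes were abundant in every NKT1 library and at about 10 CPM or fewer in each NKT17 library. Sidt1, a transmembrane protein of the RNA transporter family, was at 260.2, 225 and 179 CPM in NKT1 and 9.96, 8.00 and 10.4 CPM in NKT17 (log2 fold change 4.54, SE 0.20, adjusted p 6.49e-14 by edgeR). Large differences were also found on the NKT17 side. Cpe, which encodes carboxypeptidase E, was at 65.0, 73.6 and 106 CPM in NKT17 and 0, 0 and 0 CPM in NKT1 (at least 538-fold higher in NKT17, edgeR adjusted p 2.72e-12). Abi3bp, a matrix protein gene, was at 37.1, 43.3 and 79.7 CPM in NKT17 and 0, 0 and 0 CPM in NKT1 (at least 359-fold higher in NKT17, edgeR adjusted p 2.08e-10). Lingo4, a leucine-rich repeat membrane protein, was at 51.1, 41.6 and 58.5 CPM in NKT17 and 0, 0 and 0 CPM in NKT1 (at least 326-fold higher in NKT17, edgeR adjusted p 7.76e-09). None of these 3 genes had a read in any NKT1 library. Mapk10, the gene of the kinase JNK3, was at 198, 126 and 175 CPM in NKT17 and 0, 0 and 0.177 CPM in NKT1 (ratio of 3184 in favor of NKT17, 95% counting interval 571 to 125809, edgeR adjusted p 1.98e-12), and the receptor kinase gene Igf1r was at 109.5, 107 and 170.3 CPM in NKT17 and 0.121, 0.382 and 0 CPM in NKT1 (ratio of 851 in favor of NKT17, 95% counting interval 291 to 4129.5, edgeR adjusted p 6.45e-14). The metalloprotease gene Adam33 was at 48.2, 28.5 and 59.7 CPM in NKT17 and 0, 0 and 0 CPM in NKT1, the adaptor gene She at 62.3, 71.5 and 66.4 CPM in NKT17 and 0, 0 and 0 CPM in NKT1 and Gm1337 at 69.1, 42.1 and 47.8 CPM in NKT17 and 0, 0 and 0 CPM in NKT1, and their folds were at least 298-fold higher in NKT17, edgeR adjusted p 7.20e-06, then at least 427-fold higher in NKT17, edgeR adjusted p 6.16e-13, and at least 332-fold higher in NKT17, edgeR adjusted p 7.50e-11.

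Some genes were expressed in both subsets but at very different levels, with little spread. Emb (embigin, a partner of monocarboxylate transporters) was at 869.7, 829.8 and 827 CPM in NKT17 and 5.67, 2.29 and 2.13 CPM in NKT1 (log2 fold change -7.86, SE 0.27, adjusted p 6.49e-14 by edgeR, and -8.56 without NKT1 replicate 1). Lmo4, a LIM-domain cofactor, was at 718, 757 and 684 CPM in NKT17 and 14.2, 14.1 and 16.5 CPM in NKT1 (log2 fold change -5.59, SE 0.18, adjusted p 2.36e-16 by edgeR). Rexo2, an oligoribonuclease, was at 2457, 2486 and 2167 CPM in NKT17 and 167, 200.5 and 176 CPM in NKT1 (log2 fold change -3.71, SE 0.12, adjusted p 2.57e-16 by edgeR). Each of these 3 genes was high in all NKT17 libraries and never absent from NKT1. Xkrx was at 159, 165 and 176 CPM in NKT17 and 0.121, 0 and 0.531 CPM in NKT1 (log2 fold change -9.50, SE 0.39, adjusted p 1.71e-14 by edgeR, and -10.77 without NKT1 replicate 3), close to absent from NKT1.

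**Figure D2:**
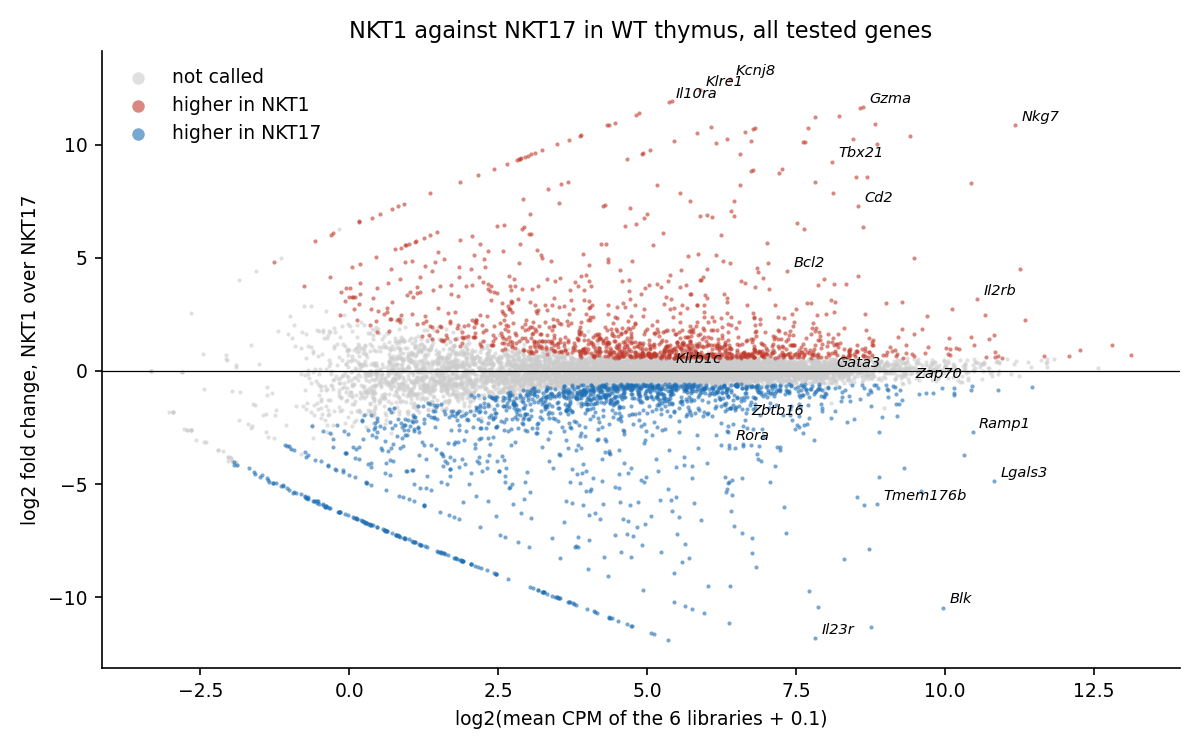
Log2 fold change of NKT1 over NKT17 (vertical) against the log2 mean CPM of the 6 libraries plus 0.1 (horizontal) for the 11118 tested genes, with genes called higher in NKT1 in red, called higher in NKT17 in blue and the rest in grey. Called genes lie on both sides at every level, and the straight diagonal edges are genes with no count in one subset, whose fitted value depends on the prior count.

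Transcription factor genes of lymphocyte lineages differed in both directions. Of 45 tested, 12 were called higher in NKT1 and 17 lower. Among all tested genes, 11.2% lay on the NKT1 side and 13.5% on the NKT17 side. These shares stand beside the counts of every list below, and no list was tested as a set. On the NKT1 side, Hopx, a homeodomain-only cofactor, was at 216, 132 and 156 CPM in NKT1 and 1.17, 1.57 and 0.961 CPM in NKT17 (log2 fold change 7.08, SE 0.33, adjusted p 2.03e-13 by edgeR), and Bhlhe40, a basic helix-loop-helix repressor, was at 95.7, 97.0 and 152 CPM in NKT1 and 14.3, 16.2 and 42.7 CPM in NKT17 (log2 fold change 2.22, SE 0.31, adjusted p 1.59e-05 by edgeR, and 2.90 without NKT17 replicate 3). Klf2, a factor that drives genes of thymic exit, was at 417, 184 and 23.2 CPM in NKT1 and 18.4, 6.78 and 22.5 CPM in NKT17 (log2 fold change 3.70, SE 0.87, adjusted p 0.00587 by edgeR, and 2.68 without NKT1 replicate 1). The NKT1 libraries differed widely for Klf2, and the lowest of them came within 1 CPM of the highest NKT17 library. In a fit of the 6 compared libraries alone its call was lost (edgeR adjusted p 0.131). Irf8 and Irf1, interferon regulatory factors, had log2 fold changes of 1.49 and 0.92, Ikzf1 of 0.89 and Runx3 of 0.64 (edgeR adjusted p 0.0350), all called. Runx3 lost its call without NKT1 replicate 1 (0.54, edgeR adjusted p 0.122), NKT17 replicate 2 (0.57, 0.120) or NKT17 replicate 3 (0.61). Among factors higher in NKT17, Sox13 was at 344, 276 and 337 CPM in NKT17 and 2.17, 0.764 and 3.72 CPM in NKT1 (log2 fold change -7.14, SE 0.39, adjusted p 2.11e-10 by edgeR), Myb at 85.1, 23.8 and 45.7 CPM in NKT17 and 0, 1.53 and 1.24 CPM in NKT1 (log2 fold change -5.94, SE 0.69, adjusted p 3.85e-06 by edgeR, and -5.20 without NKT1 replicate 1 or -6.58 without NKT1 replicate 2) and Id3, an inhibitor of E proteins, at 318, 344 and 161 CPM in NKT17 and 23.4, 24.1 and 25.5 CPM in NKT1 (log2 fold change -3.49, SE 0.25, adjusted p 5.77e-09 by edgeR). Rora, which encodes the nuclear receptor ROR alpha, was at 129, 148 and 173 CPM in NKT17 and 15.3, 17.4 and 14.5 CPM in NKT1 (log2 fold change -3.25, SE 0.21, adjusted p 1.90e-11 by edgeR). No NKT17 library of these 4 genes came near an NKT1 library. Maf (-1.96), Tcf7 (-1.98), Tox (-1.63), Runx1 (-2.57) and Batf (-0.97) were also called lower in NKT1 on the log2 scale. Eomes, the T-box factor of NK cells, was too sparse to be tested, with 35, 17 and 6 counts in the NKT1 libraries and 3, 0 and 3 in the NKT17 libraries.

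Cytokine genes were split between the subsets. Of 19 tested, 7 were called higher in NKT1 and 8 lower (36.8% and 42.1%, beside 11.2% and 13.5% of all tested genes). Ccl5, a chemokine of cytotoxic cells, was at 637, 274 and 444 CPM in NKT1 and 0.195, 0.174 and 0.137 CPM in NKT17 (ratio of 2910.4 in favor of NKT1, 95% counting interval 996 to 14116, edgeR adjusted p 3.93e-09), and Xcl1, which attracts cross-presenting dendritic cells, was at 452, 299 and 490.1 CPM in NKT1 and 0.586, 0 and 0.137 CPM in NKT17 (log2 fold change 10.74, SE 0.74, adjusted p 7.26e-08 by edgeR, and 12.01 without NKT17 replicate 1). Both were close to absent from NKT17. Il17a (chromosome 1, 20720986 to 20724577) was at 34.0, 6.09 and 83.3 CPM in NKT17 and 0, 0 and 0 CPM in NKT1 (at least 287-fold higher in NKT17, edgeR adjusted p 2.22e-04). Il22 was at 6.44, 1.22 and 18.7 CPM in NKT17 and 0, 0 and 0 CPM in NKT1 (at least 61.9-fold higher in NKT17, edgeR adjusted p 4.39e-04). Neither gene had a read in NKT1, and for both NKT17 replicate 2 was more than 10-fold below replicate 3. Without NKT17 replicate 3 the bounds were 139.8-fold for Il17a and 27.0-fold for Il22. The call of Il17a was lost in 1 of 16 alternatives, the fit of the 6 compared libraries alone (edgeR adjusted p 0.107). Il17f was not tested, with 3, 1 and 35 counts in NKT17 and 0 in every NKT1 library. Tnfsf11, the gene of RANKL, was at 106, 54.9 and 102 CPM in NKT17 and 1.45, 1.53 and 2.66 CPM in NKT1 (log2 fold change -5.55, SE 0.33, adjusted p 9.26e-12 by edgeR), and Tnf at 40.6, 37.9 and 34.6 CPM in NKT17 and 6.88, 8.59 and 11.2 CPM in NKT1 (log2 fold change -2.09, SE 0.25, adjusted p 5.02e-07 by edgeR). Ltb and Tgfb1 were not called.

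Of 22 genes of cytotoxic granules and death ligands, 11 were called higher in NKT1, 3 were called lower and 8 were not called. The median log2 fold change was 1.05, but 0.33 when genes averaging under 50 counts were left out, 0.38 when the 6 compared or the 9 WT libraries were fitted alone, and 1.71 without a filter on low counts. Nkg7, a granule membrane protein, reached 4879.7, 4270.4 and 4735 CPM in NKT1 and 3.71, 1.39 and 2.33 CPM in NKT17 (log2 fold change 10.88, SE 0.79, adjusted p 2.08e-07 by edgeR). Gzma, which encodes granzyme A, was at 1145, 549.5 and 662 CPM in NKT1 and 0.390, 0.348 and 0 CPM in NKT17 (log2 fold change 11.66, SE 0.66, adjusted p 7.79e-09 by edgeR, and 10.97 without NKT17 replicate 3). Gzmb, which encodes granzyme B, was at 851, 638 and 846 CPM in NKT1 and 11.3, 2.43 and 14.3 CPM in NKT17 (log2 fold change 6.35, SE 0.61, adjusted p 3.25e-06 by edgeR). Fasl, the ligand of the death receptor Fas, was at 487, 597 and 586 CPM in NKT1 and 2.15, 2.61 and 2.33 CPM in NKT17 (log2 fold change 7.86, SE 0.24, adjusted p 2.87e-16 by edgeR). The NKT1 libraries lay above the NKT17 libraries for all 4 genes, by the least for Gzmb. Prf1 (perforin) and Ctsw (cathepsin W) had log2 fold changes of 5.67, 6.42 without NKT17 replicate 3 (edgeR adjusted p 3.16e-09) and 2.49 (edgeR adjusted p 9.20e-15). Srgn, Lamp1, Ctsc and Stxbp2, parts of the secretory machinery that many cells use, were not called. Crtam, an adhesion receptor of activated lymphocytes, was at 59.9, 64.7 and 54.4 CPM in NKT17 and 0.362, 2.48 and 3.37 CPM in NKT1 (log2 fold change -4.93, SE 0.43, adjusted p 3.90e-09 by edgeR, and -4.34 without NKT1 replicate 1 or -5.55 without NKT1 replicate 3), and Rab27a and Lamp2 were also called lower in NKT1.

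Receptors for cytokines gave each subset its own set. Of 31 tested, 12 were called higher and 11 lower in NKT1. Il12rb2, the signaling chain of the IL-12 receptor, was at 207, 209 and 184 CPM in NKT1 and 0, 0 and 0.274 CPM in NKT17 (ratio of 1822 in favor of NKT1, 95% counting interval 504 to 15047, edgeR adjusted p 5.31e-08), while Il12rb1, the chain shared with the IL-23 receptor, was at 247, 254 and 342 CPM in NKT17 and 49.3, 64.2 and 77.8 CPM in NKT1 (log2 fold change -2.15, SE 0.18, adjusted p 5.64e-09 by edgeR). The partner chains of the IL-12 receptor were thus on opposite sides. Il2rb, the chain shared by the IL-2 and IL-15 receptors, was at 2513, 2639 and 2876 CPM in NKT1 and 294, 278 and 321 CPM in NKT17 (log2 fold change 3.17, SE 0.12, adjusted p 2.90e-15 by edgeR). Il10ra was at 99.8, 68.2 and 79.2 CPM in NKT1 and 0, 0 and 0 CPM in NKT17 (at least 515-fold higher in NKT1, edgeR adjusted p 1.13e-10) and Il21r at 191, 169.8 and 202 CPM in NKT1 and 14.8, 11.0 and 12.6 CPM in NKT17 (log2 fold change 3.87, SE 0.13, adjusted p 1.04e-15 by edgeR). Il1r1, the IL-1 receptor, was at 481, 425 and 494 CPM in NKT17 and 0, 0.191 and 0.886 CPM in NKT1 (log2 fold change -10.43, SE 0.60, adjusted p 4.16e-09 by edgeR, and -9.67 without NKT1 replicate 1 or -12.25 without NKT1 replicate 3), and Il17re, a chain of the IL-17C receptor, at 194, 204 and 248 CPM in NKT17 and 0.121, 1.34 and 1.24 CPM in NKT1 (log2 fold change -8.04, SE 0.39, adjusted p 5.74e-12 by edgeR, and -7.37 without NKT1 replicate 1). The chains of the IFN-gamma receptor also parted. Ifngr1 was at 1375, 1307 and 1466 CPM in NKT1 and 755, 570.4 and 734 CPM in NKT17 (log2 fold change 1.01, SE 0.11, adjusted p 1.89e-07 by edgeR), and Ifngr2 at 72.4, 62.1 and 63.0 CPM in NKT17 and 0.241, 0.191 and 1.95 CPM in NKT1 (log2 fold change -6.43, SE 0.40, adjusted p 7.04e-11 by edgeR, and -8.08 without NKT1 replicate 3). Ifngr2, required for signaling, was near 1 CPM in NKT1, whose libraries all held Ifng transcripts. Il7r was at 1595, 1823 and 1779 CPM in NKT17 and 1052, 1105 and 1096 CPM in NKT1 (log2 fold change -0.68, SE 0.10, adjusted p 1.21e-05 by edgeR), a small difference beside those above. The common gamma chain gene Il2rg (0.53), Il15ra and Il18r1 were not called, while Il18rap (1.00) was.

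Downstream of these receptors, 7 of 24 JAK, STAT, SOCS and PIM genes were called higher in NKT1 and 3 lower. These are 29.2% and 12.5%, beside 11.2% and 13.5% of all tested genes. Stat4, which carries the IL-12 signal, was at 444, 436 and 429 CPM in NKT1 and 24.6, 25.0 and 43.9 CPM in NKT17 (log2 fold change 3.79, SE 0.31, adjusted p 1.37e-07 by edgeR). Socs3, an inhibitor induced by STAT3, was at 307, 280.5 and 339 CPM in NKT17 and 74.7, 29.6 and 73.2 CPM in NKT1 (log2 fold change -2.38, SE 0.29, adjusted p 7.56e-06 by edgeR), and Stat3 itself had a log2 fold change of -0.20 and was not called. Jak1 was called higher (0.76) and Jak3 and Stat5b lower (-1.03 and -1.06) in NKT1. Cish (1.65) and the kinase genes Pim1 (1.02) and Pim2 (0.98) were called higher. The libraries of the subsets overlapped for Pim1, and its call was lost in 5 alternatives, among them those without NKT1 replicate 1 (0.77, edgeR adjusted p 0.121), NKT17 replicate 1 (0.75, 0.119) and NKT17 replicate 2 (0.86, 0.117).

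NK receptors and their adaptors were among the lists furthest from the rest of the genes. Of 28 tested, 23 were called higher in NKT1, 1 lower and 4 were not called, with a median log2 fold change of 9.60, or 8.52 with genes of 0 to 3 counts in a group at their bound or counted ratio. Most of the receptors sit side by side in the NK gene complex of chromosome 6. In build NCBIM37 the 15 tested genes from Klre1 to Klra1 (129527911 to 130336892) follow each other with no tested gene between them that was not called. All 15 were called higher in NKT1, and their NKT1 libraries all lay above the NKT17 libraries. Mean levels in NKT1 ran from 15.9 CPM to 829 CPM (Klrk1, the gene of NKG2D), and no gene of the stretch had a mean above 2.29 CPM in NKT17. Over chromosome 6 as a whole, 17.0% of 524 tested genes were called higher. Klre1 was at 148, 103 and 102 CPM in NKT1 and 0, 0 and 0 CPM in NKT17 (at least 740.3-fold higher in NKT1, edgeR adjusted p 1.82e-11). Klrd1, which encodes CD94, the partner of NKG2 receptors, was at 638, 464 and 681 CPM in NKT1 and 0, 0.174 and 0.412 CPM in NKT17 (log2 fold change 11.27, SE 0.60, adjusted p 2.29e-09 by edgeR, and 12.34 without NKT17 replicate 3). Among Ly49 receptors, which bind MHC class I, Klra5 was at 853, 619.8 and 801 CPM in NKT1 and 0.195, 0.522 and 0 CPM in NKT17 (log2 fold change 11.61, SE 0.49, adjusted p 1.82e-11 by edgeR, and 12.83 without NKT17 replicate 2 or 10.92 without NKT17 replicate 3). The closely related Klra and Klrc genes share sequence, so their single counts are uncertain. The 15 genes are those of the annotation, and whether the BALB/c mice carry each of them was not examined. Outside the complex, Ncr1 (NKp46) was at 189, 97.8 and 115 CPM in NKT1 and 0, 0 and 0.137 CPM in NKT17 and the adaptor gene Fcer1g at 523, 272 and 404 CPM in NKT1 and 0.586, 0.348 and 0.137 CPM in NKT17, both called higher. Tyrobp, which encodes the adaptor DAP12, was at 121, 52.5 and 89.3 CPM in NKT1 and 0, 0.174 and 0 CPM in NKT17 (ratio of 1687 in favor of NKT1, 95% counting interval 302 to 66652, edgeR adjusted p 3.07e-12). Cd96, Klrb1a, Klrb1f and Klrb1c were not called, and Cd226, which encodes the activating receptor DNAM-1, was called lower (-0.80).

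The SLAM family signals between hematopoietic cells and is needed for iNKT development. All 9 tested members and partners were called, 5 higher and 4 lower in NKT1. Cd2 was at 746, 732 and 740.2 CPM in NKT1 and 1.76, 9.56 and 2.88 CPM in NKT17 (log2 fold change 7.29, SE 0.43, adjusted p 9.42e-09 by edgeR, and 8.23 without NKT17 replicate 2), Slamf7 at 304, 303 and 284 CPM in NKT1 and 1.17, 0.696 and 0.274 CPM in NKT17 (log2 fold change 8.76, SE 0.75, adjusted p 8.75e-07 by edgeR) and Cd244 at 124, 47.0 and 85.7 CPM in NKT1 and 0, 0 and 0 CPM in NKT17 (at least 555-fold higher in NKT1, edgeR adjusted p 8.44e-09). These 3 genes were nearly confined to NKT1 among the 6 libraries. Ly9 (0.96) and Cd48 (0.82) were less different. Slamf1, Slamf6, Cd84 and the adaptor gene Sh2d1a (SAP) were higher in NKT17, with log2 fold changes of -1.21, -1.13, -1.16 and -0.83. The 2 family members on which iNKT selection relies, Slamf1 and Slamf6, were thus on the NKT17 side, with 151, 151 and 151 CPM in NKT17 and 41.4, 67.0 and 99.9 CPM in NKT1 for Slamf6.

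Chemokine and egress receptors divided into 8 called higher and 7 lower of 23. Besides Cxcr3, NKT1 libraries held more Ccr8 (122, 81.2 and 136 CPM in NKT1 and 3.71, 4.70 and 1.37 CPM in NKT17; log2 fold change 5.16, SE 0.33, adjusted p 6.03e-10 by edgeR) and Cx3cr1 (24.1, 10.5 and 11.3 CPM in NKT1 and 0, 0 and 0 CPM in NKT17; at least 101-fold higher in NKT1, edgeR adjusted p 8.02e-07). S1pr1, the receptor used to leave the thymus, was called higher as well (2.73, 3.61 without NKT17 replicate 2). Ccr6 was at 18.4, 3.65 and 14.1 CPM in NKT17 and 0.121, 0 and 0 CPM in NKT1 (ratio of 230.1 in favor of NKT17, 95% counting interval 40.9 to 9129, edgeR adjusted p 1.16e-04). Ltb4r1, the leukotriene B4 receptor, was at 87.7, 114 and 119.7 CPM in NKT17 and 0, 0 and 0.177 CPM in NKT1 (ratio of 2085 in favor of NKT17, 95% counting interval 374 to 82413, edgeR adjusted p 5.98e-13), and Ccr7 at 43.7, 48.9 and 44.1 CPM in NKT17 and 0, 0.764 and 1.95 CPM in NKT1 (log2 fold change -5.80, SE 0.57, adjusted p 2.09e-06 by edgeR, and -5.03 without NKT1 replicate 1 or -7.15 without NKT1 replicate 3). NKT17 replicate 2 had the lowest level of Ccr6 among the NKT17 libraries. Cxcr6, a receptor of tissue-resident lymphocytes that both subsets carry, was not called.

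Integrins and adhesion genes also divided, with 6 of 25 called higher and 8 lower, Itga1 and Sdc1 of the gates among them. Itga4 and Itgb1, the chains of VLA-4, were both higher in NKT1. Itga4 was at 58.6, 14.3 and 19.0 CPM in NKT1 and 1.37, 1.39 and 2.88 CPM in NKT17 (log2 fold change 3.98, SE 0.49, adjusted p 1.00e-06 by edgeR, and 3.09 without NKT1 replicate 1) and Itgb1 at 829, 596 and 628 CPM in NKT1 and 129.8, 106 and 123 CPM in NKT17 (log2 fold change 2.51, SE 0.16, adjusted p 5.58e-11 by edgeR). Entpd1, the ectonucleotidase CD39, was at 145, 206 and 193 CPM in NKT1 and 18.2, 33.6 and 20.4 CPM in NKT17 (log2 fold change 2.91, SE 0.24, adjusted p 3.55e-09 by edgeR). On the other side, Itgb3 was at 178, 147 and 145 CPM in NKT17 and 3.98, 6.49 and 0.886 CPM in NKT1 (log2 fold change -5.37, SE 0.37, adjusted p 5.23e-09 by edgeR) and Itga5 at 42.9, 25.4 and 29.9 CPM in NKT17 and 2.41, 0 and 0.886 CPM in NKT1 (log2 fold change -4.72, SE 0.54, adjusted p 3.76e-07 by edgeR, and -6.09 without NKT1 replicate 1). Itgae, Itgal and Cd44 were not called.

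A wider list of genes known from type 17 lymphocytes was mostly on the NKT17 side. Of 28 tested, 25 were called lower in NKT1 and 1 higher (2 without NKT17 replicate 2), and the median log2 fold change was -5.74. The list shares 8 genes with those already given, Il23r among them. Blk, a Src-family kinase, was at 1925, 2083 and 1998 CPM in NKT17 and 1.81, 1.34 and 0.886 CPM in NKT1 (log2 fold change -10.46, SE 0.36, adjusted p 1.33e-12 by edgeR). Tmem176a and Tmem176b, neighboring genes for membrane proteins, were at 733, 792 and 837 CPM in NKT17 and 11.7, 9.93 and 17.4 CPM in NKT1 (log2 fold change -5.92, SE 0.20, adjusted p 3.03e-15 by edgeR) and 859, 993 and 894 CPM in NKT17 and 19.9, 10.9 and 14.7 CPM in NKT1 (log2 fold change -5.89, SE 0.23, adjusted p 6.16e-13 by edgeR). Ramp1, a co-receptor for the neuropeptide CGRP, was at 2298, 2773 and 2268 CPM in NKT17 and 301, 399 and 434 CPM in NKT1 (log2 fold change -2.69, SE 0.15, adjusted p 6.63e-12 by edgeR), and the scavenger receptor gene 5830411N06Rik at 1552, 1161 and 1806 CPM in NKT17 and 40.6, 28.8 and 46.2 CPM in NKT1 (log2 fold change -5.28, SE 0.39, adjusted p 1.65e-07 by edgeR). Kcnk1, a two-pore potassium channel gene, was at 124, 94.8 and 152 CPM in NKT17 and 0, 0 and 0.177 CPM in NKT1 (ratio of 2419 in favor of NKT17, 95% counting interval 434 to 95586, edgeR adjusted p 3.49e-12). All of these are separated between the subsets in every library, with Ramp1 clearly present in NKT1. The exception was Etv5, an ETS factor of gamma-delta type 17 cells, at 7.49, 18.9 and 15.1 CPM in NKT1 and 4.69, 4.17 and 4.39 CPM in NKT17 (log2 fold change 1.63, SE 0.43, adjusted p 0.00519 by edgeR). Il18r1 and Cxcr6 were not called.

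Genes of TCR signaling were compared next, since the study asked whether this machinery differs between subsets. By gene set enrichment analysis, it reported its own TCR list as significantly enriched in NKT1 over NKT17. The list here is a different one, and its members were counted without a set test. The study does not state outright that its enrichment used these libraries. Of 95 tested, 26 were called higher in NKT1 and 15 lower, and the median log2 fold change was 0.20. The shares were 27.4% and 15.8%, beside 11.2% and 13.5% of all tested genes. The kinase genes Lck and Fyn, the CD3 chain genes Cd3g, Cd3d and Cd3e and the adaptor gene Lcp2 were not called, with log2 fold changes between -0.20 (Lcp2) and 0.55 (Lck). Lck lay just under the fold minimum and was called without NKT1 replicate 1 (0.61) or NKT17 replicate 2 (0.60). Zap70 was at 801, 852 and 716 CPM in NKT17 and 516, 569 and 605 CPM in NKT1 (log2 fold change -0.49, SE 0.11, adjusted p 0.00224 by edgeR), with every NKT17 library above the NKT1 libraries, but the difference was under 1.5-fold. Of the proximal genes that were called, Cd247 (-1.48), which encodes the zeta chain, and Lat (-0.85) were lower in NKT1. The adaptor gene Lat2 was at 61.0, 24.3 and 28.2 CPM in NKT1 and 0, 0.348 and 0.274 CPM in NKT17 (log2 fold change 7.30, SE 0.71, adjusted p 2.71e-08 by edgeR), and Ubash3a, a negative regulator of ZAP-70, at 176, 143 and 202 CPM in NKT1 and 0.390, 1.39 and 2.33 CPM in NKT17 (log2 fold change 6.87, SE 0.29, adjusted p 4.26e-14 by edgeR, and 7.52 without NKT17 replicate 3). Its paralog Ubash3b was on the other side, at 131, 89.4 and 129 CPM in NKT17 and 55.2, 41.1 and 27.5 CPM in NKT1 (log2 fold change -1.49, SE 0.20, adjusted p 4.39e-06 by edgeR). Spry2 and Dusp6 encode feedback inhibitors of the ERK pathway. Spry2 was at 472 ± 128 CPM in NKT1 and 27.9 ± 14.5 CPM in NKT17 (log2 fold change 4.07, SE 0.32, adjusted p 4.90e-08 by edgeR), and Dusp6 at 40.8, 51.6 and 50.8 CPM in NKT1 and 6.83, 1.57 and 3.98 CPM in NKT17 (log2 fold change 3.54, SE 0.32, adjusted p 8.10e-09 by edgeR). Malt1 (3.24), which links the TCR to NF-kappa B, and Bcl10 (0.80) were called higher. Rasgrp1, the main Ras activator of thymocytes, was at 322, 249 and 351 CPM in NKT17 and 111, 129 and 88.0 CPM in NKT1 (log2 fold change -1.49, SE 0.17, adjusted p 4.15e-07 by edgeR), and Rasgrp2, which acts on Rap1, was called higher (1.46).

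Checkpoint and costimulatory genes gave 13 of 23 called higher in NKT1 and 6 lower. Tigit was at 42.3, 32.8 and 48.0 CPM in NKT1 and 0, 0 and 0 CPM in NKT17 (at least 250.5-fold higher in NKT1, edgeR adjusted p 7.34e-08), and Cd160, Cd27 and Tnfrsf18 (GITR) were also called higher, with log2 fold changes of 2.93, 2.52 and 2.18. Pdcd1, the gene of PD-1, was at 1016, 754 and 717 CPM in NKT17 and 125, 139 and 118 CPM in NKT1 (log2 fold change -2.70, SE 0.23, adjusted p 1.01e-07 by edgeR), and Lag3 at 41.6, 16.2 and 35.0 CPM in NKT17 and 7.73, 5.16 and 2.48 CPM in NKT1 (log2 fold change -2.56, SE 0.42, adjusted p 8.18e-05 by edgeR). Tnfrsf25, the receptor for TL1A, was at 212, 217 and 216 CPM in NKT17 and 28.5, 20.8 and 14.9 CPM in NKT1 (log2 fold change -3.31, SE 0.22, adjusted p 8.23e-11 by edgeR). The inhibitory receptors thus did not move as a block, Tigit lying with NKT1 and Pdcd1 with NKT17.

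The BCL-2 family differed in which survival gene was high. Bcl2 was at 353, 275 and 310.2 CPM in NKT1 and 12.7, 7.83 and 22.2 CPM in NKT17 (log2 fold change 4.43, SE 0.44, adjusted p 3.41e-06 by edgeR). Bcl2a1a was at 41.8, 59.8 and 38.7 CPM in NKT17 and 0, 0 and 0.531 CPM in NKT1 (ratio of 296 in favor of NKT17, 95% counting interval 101 to 1436, edgeR adjusted p 2.00e-08), and its near copies Bcl2a1d (-1.02, called) and Bcl2a1b (not called) were less different. The Bcl2a1 copies share most of their sequence, so how reads were divided among them is uncertain. Genes of the BH3-only killers Bid (1.87), Bcl2l11 (1.73) and Bbc3 (1.93, 1.22 without NKT1 replicate 1) were called higher in NKT1 with Bcl2. Bik (-2.64) and Bad, which are also BH3-only genes, were called lower. Bad lost its call without NKT17 replicate 2 (-0.61, edgeR adjusted p 0.118). In all, 6 of 14 were called higher and 4 lower.

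Clock and nuclear receptor genes showed a division within the clock itself. Of 26 tested, 7 were called higher and 12 lower in NKT1. The activators Arntl (-2.45), Clock (-1.09) and Npas2 (-4.33, -3.63 without NKT1 replicate 1 or -5.14 without NKT1 replicate 2) were called lower in NKT1. Of the repressor genes, Cry2 (2.26) was called higher and Cry1 (-1.64) lower. Per2 was also called higher, but its reads in NKT1 came mostly from replicate 2. Nr1d1, which encodes the repressor REV-ERB alpha, was at 164, 154 and 184 CPM in NKT17 and 2.90, 2.29 and 6.20 CPM in NKT1 (log2 fold change -5.47, SE 0.27, adjusted p 7.62e-13 by edgeR). Its relative Nr1d2 was not called. The time of day at which tissue was taken is not given in the sources used here, and cells of both subsets were sorted from thymocytes. The vitamin D receptor gene Vdr was at 233, 88.5 and 137 CPM in NKT17 and 0.966, 12.8 and 5.14 CPM in NKT1 (log2 fold change -4.68, SE 0.61, adjusted p 4.20e-05 by edgeR, and -5.77 without NKT1 replicate 2) and the retinoic acid receptor gene Rarg at 279, 243 and 269 CPM in NKT17 and 26.0, 25.8 and 25.9 CPM in NKT1 (log2 fold change -3.35, SE 0.12, adjusted p 1.90e-15 by edgeR).

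Of 19 Notch pathway genes, 4 were called higher and 4 lower (21.1% each, beside 11.2% and 13.5% of all tested genes). Nrarp, a Notch target and inhibitor, was at 44.8, 25.8 and 8.50 CPM in NKT1 and 2.93, 1.22 and 1.78 CPM in NKT17 (log2 fold change 3.75, SE 0.52, adjusted p 9.95e-06 by edgeR, and 3.12 without NKT1 replicate 1), and the ligand gene Jag1 at 151, 127 and 150.3 CPM in NKT17 and 27.8, 19.3 and 18.2 CPM in NKT1 (log2 fold change -2.70, SE 0.35, adjusted p 6.79e-06 by edgeR). Notch1 and Notch2 were not called.

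Interferon-stimulated genes leaned to NKT1. Of 36 tested, 20 were called higher and 1 lower (2 without NKT1 replicate 3 or NKT17 replicate 3), and the median log2 fold change was 0.78. Ifit3, an RNA-binding antiviral protein, was at 71.1, 72.6 and 66.1 CPM in NKT1 and 7.03, 6.26 and 3.02 CPM in NKT17 (log2 fold change 3.70, SE 0.32, adjusted p 4.15e-09 by edgeR), and the exonuclease gene Isg20 at 184, 177 and 202 CPM in NKT1 and 38.8, 36.2 and 31.8 CPM in NKT17 (log2 fold change 2.40, SE 0.15, adjusted p 1.16e-11 by edgeR). Gbp3, a guanylate-binding protein, was at 50.8, 56.1 and 70.5 CPM in NKT1 and 7.03, 15.5 and 15.6 CPM in NKT17 (log2 fold change 2.20, SE 0.27, adjusted p 6.83e-07 by edgeR), and Irf7 had a log2 fold change of 1.36. The called member on the other side was Gbp6, at 40.6, 38.3 and 33.4 CPM in NKT17 and 23.2, 24.6 and 24.6 CPM in NKT1 (log2 fold change -0.63, SE 0.21, adjusted p 0.0281 by edgeR). Isg15 and Bst2 were not called. Of the genes of MHC class I and antigen processing, 8 of 19 were called higher and 0 lower (0 also at an unadjusted p under 0.05 and by DESeq2), with a median of 0.51. H2-K1 was at 2393, 2501 and 2576 CPM in NKT1 and 887, 1159 and 787 CPM in NKT17 (log2 fold change 1.40, SE 0.12, adjusted p 4.04e-09 by edgeR). The called members included H2-D1 (1.14), H2-Q4 (1.32) and Nlrc5 (0.75), the transactivator of class I genes, while B2m, Tap1 and Tapbp were not called. Class I genes are near copies of each other, so their counts are uncertain.

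Genes of growth and metabolism were counted in the same way, beside 11.2% called higher and 13.5% called lower over all tested genes. The shares were 18.5% and 11.1% for glycolysis and pentose phosphate genes, and 23.3% and 13.3% for sterol and fatty acid synthesis genes. In the cytosolic ribosome, 1 of 82 genes was called (Rpl37, log2 fold change 0.64, called higher), with a median log2 fold change of 0.27. Rpl37 fell under the fold minimum without NKT1 replicate 1 (0.43), NKT17 replicate 1 (0.58) or NKT17 replicate 3 (0.49), while 5 ribosomal genes were called without NKT1 replicate 2 and 8 without NKT17 replicate 2. Of the 82 tested genes of oxidative phosphorylation, 0 were called by edgeR or by DESeq2, and at an unadjusted p under 0.05 by edgeR 11 were higher and 5 lower, with a median of 0.07. No more than 1 was called in either direction without any 1 library. Cell cycle and DNA replication genes gave 4 called higher and 6 lower of 48, a share below that of all tested genes. The 6 lower became 1 without NKT1 replicate 1 or NKT17 replicate 1 and 2 without NKT1 replicate 3. Ccnd3, the cyclin D3 gene, was at 1042, 868 and 837 CPM in NKT1 and 108, 140.3 and 98.7 CPM in NKT17 (log2 fold change 2.99, SE 0.14, adjusted p 1.05e-13 by edgeR), and Mki67, Mcm5 and Ccnb1 were not called. Glycolysis and pentose phosphate genes gave 5 higher and 3 lower of 27, Pfkp at 549.9, 526 and 538 CPM in NKT17 and 229, 205 and 246 CPM in NKT1 (log2 fold change -1.25, SE 0.10, adjusted p 1.60e-09 by edgeR). The glycolysis counts became 2 and 1 without NKT17 replicate 1 or NKT1 replicate 3, 4 and 1 without NKT1 replicate 2, and 3 and 3 without NKT17 replicate 2. Sterol and fatty acid synthesis genes gave 7 higher and 4 lower of 30. Elovl5, which lengthens polyunsaturated fatty acids, was at 374, 342 and 349 CPM in NKT1 and 122, 125 and 123 CPM in NKT17 (log2 fold change 1.53, SE 0.11, adjusted p 1.21e-10 by edgeR). Among transporters, 4 of 15 were called higher and 6 lower. The glucose transporter genes Slc2a3 (174, 209 and 169.7 CPM in NKT1 and 37.3, 40.5 and 32.8 CPM in NKT17; log2 fold change 2.32, SE 0.17, adjusted p 2.32e-10 by edgeR) and Slc2a1 (1.00) were higher in NKT1, and the lactate exporter gene Slc16a3 (-1.74) was lower.

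Genes of the cell surface and its signals held further pairs on opposite sides. Their counts stand beside 11.2% called higher and 13.5% called lower over all tested genes. Among S100, annexin and galectin genes, 5 of 18 were called higher and 4 lower. Anxa2 was at 1243, 980.1 and 1099.6 CPM in NKT1 and 104, 136 and 158 CPM in NKT17 (log2 fold change 3.06, SE 0.19, adjusted p 8.55e-11 by edgeR) and Anxa1 at 97.1, 86.3 and 116 CPM in NKT1 and 2.73, 4.00 and 2.20 CPM in NKT17 (log2 fold change 5.07, SE 0.26, adjusted p 5.98e-13 by edgeR). Lgals3, which encodes galectin-3, was at 3792, 4005 and 2751 CPM in NKT17 and 170.3, 74.3 and 112 CPM in NKT1 (log2 fold change -4.88, SE 0.38, adjusted p 3.18e-07 by edgeR). Among RGS and G-protein genes, 7 of 20 were called higher and 5 lower, with the adenosine receptor gene Adora2a at 103, 112 and 124 CPM in NKT1 and 11.1, 4.52 and 5.49 CPM in NKT17 (log2 fold change 4.01, SE 0.38, adjusted p 9.31e-08 by edgeR). Of 16 potassium, sodium and related channel genes, 3 were called higher and 7 lower, Kcnj8 and Kcnk1 being given above and Kcnc1 at 30.5, 17.9 and 29.4 CPM in NKT17 and 0, 0 and 0 CPM in NKT1 (at least 166-fold higher in NKT17, edgeR adjusted p 2.52e-08). Of 9 semaphorins, plexins and neuropilins, 2 were called higher and 3 lower, with Plxnd1 at 35.3, 20.9 and 28.4 CPM in NKT17 and 0.241, 0 and 0.177 CPM in NKT1 (ratio of 179 in favor of NKT17, 95% counting interval 60.8 to 869, edgeR adjusted p 7.51e-08).

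**Figure D3:**
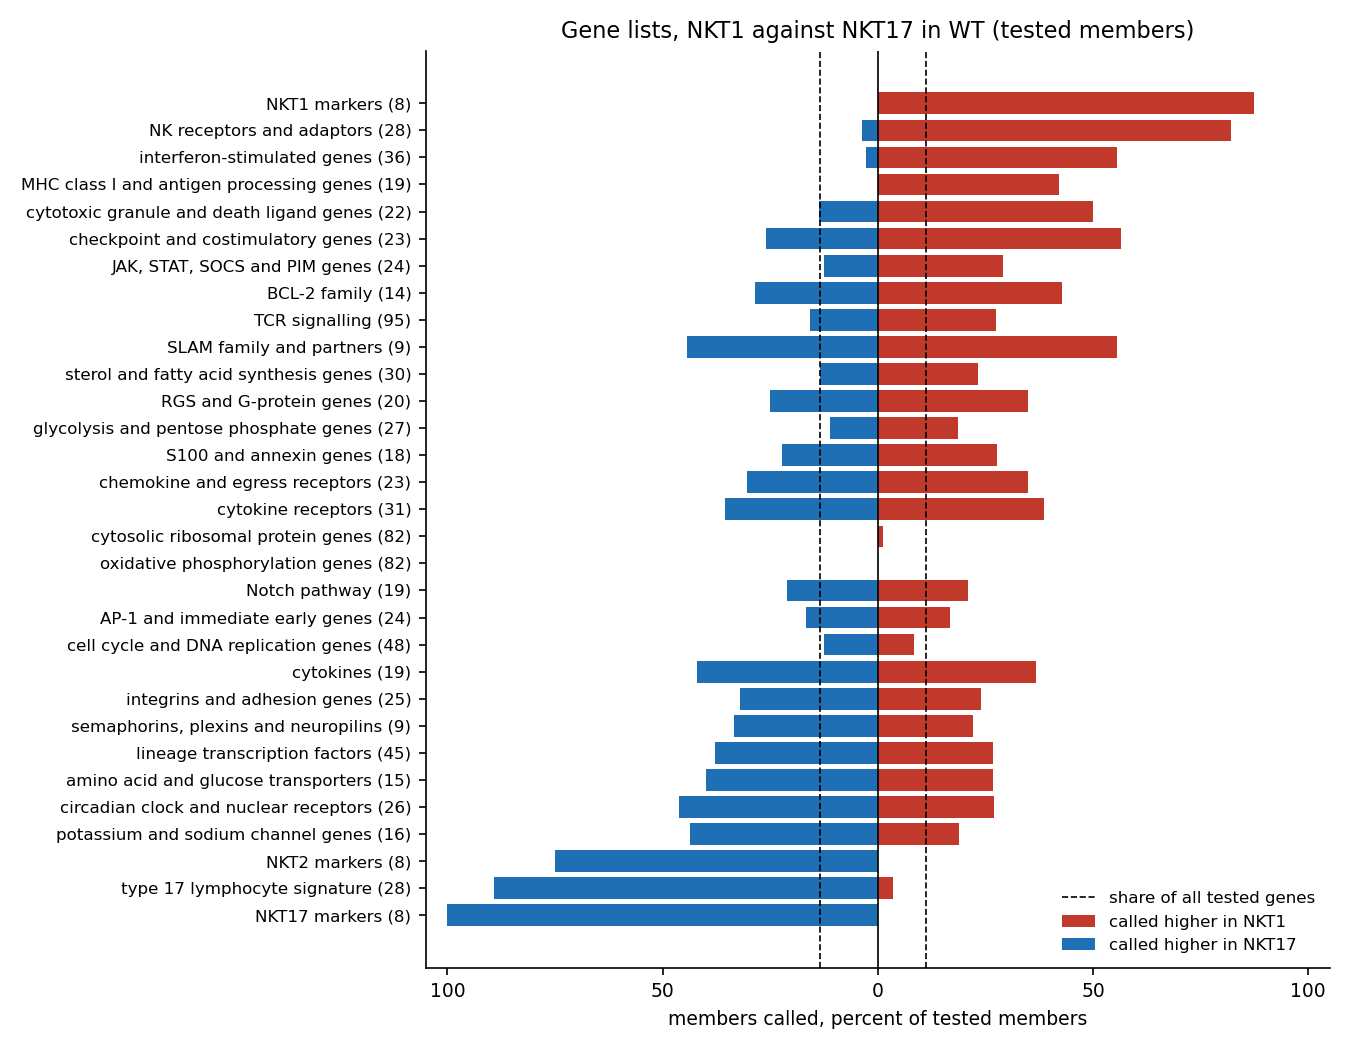
Percent of the tested members of each list called higher in NKT1 (red, to the right) or higher in NKT17 (blue, to the left), with the number of tested members in brackets and dashed lines at the share of all tested genes, 11.2% and 13.5%. NK receptors, interferon-stimulated and MHC class I genes lie mostly to the right, type 17 genes mostly to the left, and ribosomal and oxidative phosphorylation genes are almost empty.

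Early response genes differed between libraries of the same subset. Of 24 AP-1 and immediate early genes, 4 were called higher and 4 lower (16.7% each, beside 11.2% and 13.5% of all tested genes). Fos, Jun and Egr1 were not called. The study reported a preferential expression of Egr1 in NKT17, without stating outright that it was measured in these libraries. Fos was at 937, 254 and 1103 CPM in NKT17 and 285, 86.9 and 359 CPM in NKT1, so libraries differed several-fold within a subset. Its log2 fold change was -1.65 (edgeR adjusted p 0.133), and Fos was called without NKT17 replicate 2 (-2.09, edgeR adjusted p 0.0597) and by DESeq2 (adjusted p 0.0513). Dusp1, a phosphatase of MAP kinases, was at 1171, 429.8 and 1334 CPM in NKT1 and 285, 102 and 415 CPM in NKT17 (log2 fold change 1.87, SE 0.57, adjusted p 0.0256 by edgeR). Nr4a1, the gene of NUR77, which TCR signals induce, was at 74.8, 8.69 and 66.8 CPM in NKT17 and 2.54, 2.29 and 2.83 CPM in NKT1 (log2 fold change -4.28, SE 0.95, adjusted p 0.00408 by edgeR). In NKT17 replicate 2 it was several-fold below the other NKT17 libraries but still above every NKT1 library. The summed CPM of 8 early genes (Fos, Fosb, Jun, Junb, Egr1, Nr4a1, Ier2 and Dusp1, chosen after their values were seen) was 3462, 1854 and 4570 in NKT1, 3503, 1624 and 5033 in NKT17, and 1777, 1037 and 2222 in NKT2. Replicate 2 was the lowest of the 3 libraries in each WT subset, and the replicate 2 libraries carry the same token in their titles. With this token as a block in the 9 WT libraries, Fos was called (log2 fold change -1.63, edgeR adjusted p 9.34e-06), Dusp1 (1.93, edgeR adjusted p 1.90e-07) and Nr4a1 (-4.06, edgeR adjusted p 9.73e-05) stayed called, and 4 genes of the list were called higher and 7 lower. In the fit of the 6 compared libraries, 2 were called higher and 4 lower. The labels do not say what the token marks. The call of Dusp1 was lost in 2 alternatives, with adjusted p-values of 0.125 and 0.179.

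**Figure D4:**
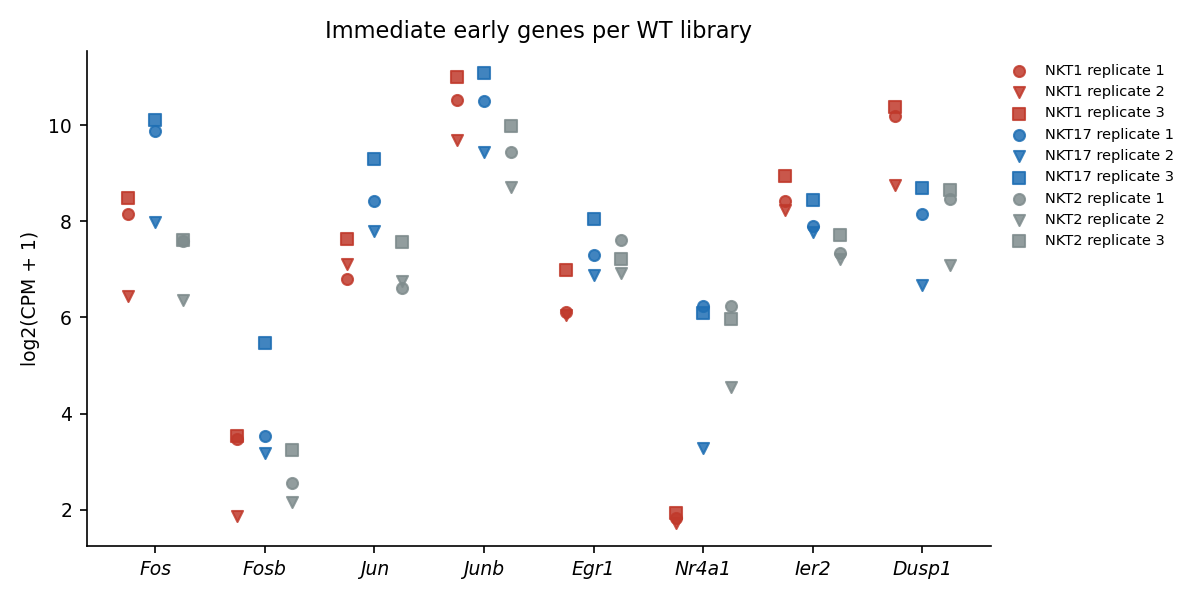
Levels of 8 immediate early genes in the 9 WT libraries as log2(CPM + 1), with color for the subset and marker shape for the replicate (circle 1, triangle 2, square 3). Replicate 2 is at or near the bottom in most columns of each subset, and Nr4a1 is near 2 on this scale in all NKT1 libraries.

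The position of NKT2 was read from the same fit, with WT NKT2 means set beside those of the other subsets. Of the 1243 genes called higher in NKT1, NKT2 lay between the subsets and nearer to NKT17 for 471 (37.9%), between them and nearer to NKT1 for 258 (20.8%), below both for 376 (30.3%) and above both for 138 (11.1%). Of the 1505 called lower in NKT1, NKT2 lay between and nearer to NKT1 for 429 (28.5%), between and nearer to NKT17 for 446 (29.6%), below both for 251 (16.7%) and above both for 379 (25.2%). The counts are positions of means, and they were not tested. Il23r was at 0.409, 0.175 and 0.162 CPM in NKT2 and Blk at 7.56, 4.54 and 3.72 CPM in NKT2, near the NKT1 level. Ramp1, at 1469.6, 1905 and 1863 CPM in NKT2, and Zbtb16, at 173, 184 and 226 CPM in NKT2, were near the NKT17 level. Ttc39c, called higher in NKT1 than in NKT17, was at 93.0, 83.2 and 78.1 CPM in NKT2, above both, and Sidt1 at 9.20, 10.8 and 8.24 CPM in NKT2, in the range of NKT17. Lgals3, at 103, 57.5 and 47.4 CPM in NKT2, lay in the range of NKT1 or below.

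The same contrast was measured in other libraries, the 3 NKT1 and 3 NKT17 libraries of SKG thymus. There 2533 genes (22.8%) passed the same thresholds, 1139 (10.2%) on the NKT1 side and 1394 (12.5%) on the NKT17 side. Of the 1243 genes called higher in WT, 769 (61.9%) were called higher in SKG as well and 9 were called lower. Of the 1505 called lower in WT, 939 (62.4%) were called lower in SKG and 12 were called higher. Across the tested genes the Pearson correlation of the WT and SKG log2 fold changes was 0.82, as a description, since genes are not independent. The difference of the contrast between SKG and WT, an interaction term, was called for 464 genes (4.17%), or for 296 without SKG NKT17 replicate 3. Tbx21 had a log2 fold change of 8.33 in SKG, and the difference was not called.

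The genes with the smallest adjusted p for this difference, among those called in WT, changed sign or shrank in SKG. Pim2, a kinase gene induced by cytokines, was at 478, 412 and 465 CPM in NKT1 and 202, 268 and 215 CPM in NKT17 in WT, with a log2 fold change of 0.98, and at -1.11 on that scale in SKG (difference -2.10, SE 0.18, adjusted p 7.71e-07 by edgeR). Furin, the gene of a proprotein convertase, went from 1.48 in WT to -1.57 in SKG (difference -3.06, SE 0.30, adjusted p 3.72e-06 by edgeR), and its WT levels were 90.3, 93.0 and 90.2 CPM in NKT1 and 24.0, 26.1 and 47.1 CPM in NKT17. Ccr8 went from 5.16 to 1.12 (difference -4.04, SE 0.42, adjusted p 2.07e-05 by edgeR). Gng2, a G-protein gamma subunit, went from 3.41 to 0.60 (difference -2.82, SE 0.29, adjusted p 5.74e-06 by edgeR), Neurl3 from 7.53, 8.49 without NKT17 replicate 3, to 2.74 (difference -4.78, SE 0.48, adjusted p 6.01e-06 by edgeR) and Ttc39c from 3.29 to 0.85 (difference -2.44, SE 0.26, adjusted p 9.44e-06 by edgeR). All 6 genes were higher in NKT1 in WT, and all 6 differences were negative. Picking WT calls by this same difference favors a difference opposite in sign to the WT value, so nothing is read from the shared direction. Il4 was lower in NKT1 in WT (-0.77) and higher in SKG (1.94), with a difference of 2.71, SE 0.45, adjusted p 0.00222 by edgeR. The lists that differed most in their calls were those of the cell cycle, with 4 higher and 6 lower in WT and 20 higher and 0 lower in SKG, where the median log2 fold change was 0.70 against -0.10 in WT. Without 1 SKG library at a time, 15 to 22 were called higher and 0 or 1 lower in SKG. In the full SKG contrast 0 were lower at an unadjusted p under 0.05 and by DESeq2. The 6 called lower in WT became 1 without NKT1 replicate 1 or NKT17 replicate 1 and 2 without NKT1 replicate 3. The list as a whole was not tested. Top2a went from -0.84 to 0.93 (difference 1.77, SE 0.46, adjusted p 0.0493 by edgeR). Its WT call was lost without NKT1 replicate 1 (-0.73, edgeR adjusted p 0.184), NKT1 replicate 2 (-0.84, 0.127) or NKT17 replicate 1 (-0.42, 0.340), and the call of the difference without WT NKT1 replicate 1 (0.112) or SKG NKT1 replicate 2 (0.108).

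**Figure D5:**
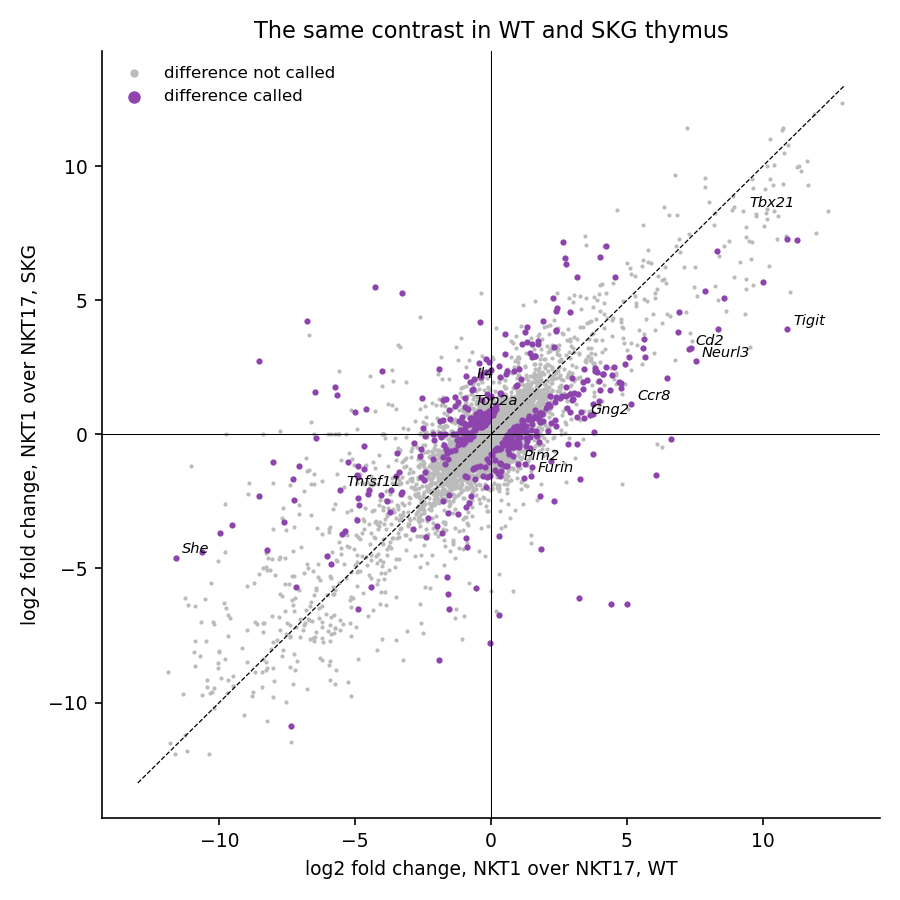
Log2 fold change of NKT1 over NKT17 in SKG (vertical) against that in WT (horizontal) for the 11118 tested genes, with the 464 genes whose difference was called in purple, the rest in grey and the line of equal values dashed. Most strongly different genes keep their side, the correlation across genes being 0.82, and Pim2 and Furin are labelled on the other side of 0 in SKG.

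Markers of other cells that a sort could hold were summed over their lists. Red cell genes were at 0 to 0.709 CPM in the NKT1 libraries and 0.174 to 0.824 CPM in NKT17, with 5 of 7 listed genes at 0 in both groups. Hba-a1, Hba-a2, Hbb-b1 and Hbb-b2 were among these. Rpl26 of the ribosome and Ndufs5 of oxidative phosphorylation were also at 0 in both groups, so a 0 need not mean absent RNA. Myeloid and dendritic genes summed to 2.86 to 9.74 CPM in NKT1 and 0.976 to 4.80 CPM in NKT17, with 6 of 15 at 0 in both, among them Itgam, Itgax and Csf1r. B cell genes summed to 6.16 to 10.3 CPM in NKT1 and 16.9 to 18.6 CPM in NKT17, with Pax5 at 0. Cd79b, at -2.47, was the called member of the 3 tested. Double-positive thymocyte genes summed to 78.6 to 108 CPM and 59.7 to 75.3 CPM, with Rag2 and Dntt at 0 and Tcf12 and Cd1d1, which iNKT cells also express, giving most of the sum. NK cell genes summed to 1410 to 2469 CPM in NKT1 and 25.6 to 39.8 CPM in NKT17, with all 9 tested members called higher. The 3 gamma-delta T cell genes in the table, Sox13, Cd163l1 and 5830411N06Rik, summed to 39.3 to 63.9 CPM in NKT1 and 1567 to 2335 CPM in NKT17. All 3 were called lower in NKT1. Of the gamma and delta TCR chains, the listed Trdc, Tcrg-C1, Tcrg-C2, Tcrg-C4 and Trdv4 had no row in the count table, so they could not be examined. Plasma cell genes summed to 302 to 332 CPM in NKT1 and 752 to 971 CPM in NKT17, with 1 called higher and 3 lower of 6 tested. Xbp1, which many cells express, gave most of the sum in NKT1, Sdc1, which the sort used, was among the 3, and Tnfrsf17 was at 0 in both groups. Regulatory and naive T cell genes summed to 132 to 172 CPM and 257 to 320 CPM, with 1 called higher and 2 lower of 7 tested and Foxp3 at 0. Thymic epithelial genes summed to 37.2 to 46.8 CPM and 20.7 to 34.7 CPM, with 1 called higher and 1 lower of 3 tested and Krt14 and Foxn1 at 0. The gates required CD1d tetramer binding, and the part of any of these cells in the results was not tested.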

How the data were processed

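RNA-seq libraries were made by the study from sorted thymic iNKT cells, and the deposited table holds whole-number counts of reads per gene symbol for 18 libraries (4391029 to 8895917 counts each). Per the authors' methods, reads were aligned with TopHat and counted with htseq-count in union mode. The submitters' processing notes list Bowtie 1.0.0, TopHat 1.4.1, HTSeq 0.7.1 and the builds hg19 and mm10, while the methods name another mouse build and counter version, so neither is settled. The strand setting is not given in the sources used here. In the table, 2 columns of no listed sample were not used.

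Counts were tested with edgeR 4.0.16 (R 4.3.3) in 1 fit over all 18 libraries and 6 groups, with TMM scaling (factors 0.928 to 1.072), the filterByExpr minimum and a robust quasi-likelihood F test, two-sided. Of 23337 genes, 15582 had a count and 11118 were tested. The common biological coefficient of variation was 21.09%, and the SE was taken from the fold change and F. The procedure was tested on simulated data. DESeq2 1.42.0 served as an alternative, beside RLE and upper-quartile scaling, other filters and thresholds, fits of the 6 compared or 9 WT libraries, a replicate block and leaving out each library. The fit of the 9 WT libraries without the block was added after seeing the data.

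The comparison, its gene lists and tests were chosen with earlier results of these data known. Genes were named by rule, from called genes averaging 50 counts or more in the higher subset (the largest fold changes and smallest p-values in each direction, and the leading members of each list), plus the subset-defining genes and the smallest adjusted p-values of the SKG difference. Further list members were named after their values were seen. Gene positions are from GENCODE M1 on NCBIM37 and promoters from RefSeq on GRCm38.p6, read by symbol and not converted. Some genes are not reported here.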

Additional observations from a re-analysis of the deposited data

Results flagged for a closer look

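The NKT1 to NKT17 contrast differed between SKG and WT for 43 of the 183 tested genes that the text gives with values, beside 4.17% of all tested genes (464 of 11118). These genes were named from the WT calls and in part for the smallest p of this same difference, so the choice raises their count and nothing is read from it. Each was picked out by the interaction term of the edgeR fit over all 18 libraries, with a Benjamini-Hochberg adjusted p under 0.1 and a difference of at least 1.5-fold. Differences below are SKG minus WT on the log2 scale, each from 3 libraries in each of 4 groups, and a negative value means a lower NKT1 to NKT17 ratio in SKG.

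Among genes higher in NKT1 in WT, 3 of cytotoxic function had negative differences, with -3.62 for Nkg7, -2.78 for Prf1 and -2.52 for Fasl. The receptor and adhesion genes Tigit (-6.95), Cd2 (-4.13), Ccr8 (-4.04), Klrd1 (-4.03), Itga4 (-2.73), Tnfrsf18 (-0.76) and Cd48 (-0.61) also had a smaller ratio in SKG. For Pim2 and Furin the log2 ratio changed sign. Regulators of signaling and transcription were at -3.06 (Ubash3a), -1.52 (Dusp6), -2.62 (Nrarp), -1.80 (Bhlhe40), -1.04 (Cish), -2.10 (Pim2) and -0.81 (Irf7). The other genes of this kind were Neurl3 (-4.78), Furin (-3.06), Gng2 (-2.82), Ttc39c (-2.44), Anxa1 (-2.18), Anxa2 (-1.52), Ms4a4b (-1.49), Isg20 (-1.0) and the cyclin gene Ccnd3 (-0.87). The exceptions, with a larger ratio in SKG, were Irf8 (1.89), Entpd1 (1.67) and Sidt1 (1.32).

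Among genes lower in NKT1 in WT, positive differences, so ratios nearer to 0 or of the other sign in SKG, were found for She (6.99), Tnfsf11 (3.48), Il4 (2.71), Id3 (1.95), Itgb3 (1.77), Top2a (1.77), Nr1d1 (1.74), Tmem176b (1.04), Runx1 (0.99), Cd247 (0.87), Rexo2 (0.80) and Cd226 (0.68). She had no count in WT NKT1, so the size of its difference depends on the prior count. The same holds for Tigit, which had no count in WT NKT17. Socs3 (-1.45) and Lgals3 (-1.62) went the other way. The difference was lost in at least 1 alternative for 13 of the 43 genes, Cd48, Cish, Dusp6, Irf7, Itgb3, Klrd1, Lgals3, Nkg7, Runx1, Socs3, Tigit, Tmem176b and Top2a. Without WT NKT1 replicate 1 the difference was -1.84 for Itga4 and -1.98 for Nrarp, and without WT NKT17 replicate 2 it was -5.06 for Cd2. Without WT NKT17 replicate 3 it was -2.48 for Bhlhe40, -5.10 for Klrd1, -5.74 for Neurl3, -3.53 for Prf1 and -3.71 for Ubash3a, each over 1.5 times from its value above and still called.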

How the results depend on the processing

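Counts of genes called between WT NKT1 and NKT17 ran from 1988 (a mean of at least 50 counts, which tests fewer genes) to 3707 (no fold minimum), beside 2748, and from 2639 to 2945 without 1 library. In the fit of the 6 compared libraries alone, 2179 genes were called. For SKG the counts ran from 1865 to 3611, beside 2533. Genes called higher in NKT1 were 45.23% of the WT calls, 41.63% with upper-quartile scaling, 43.81% without a filter, 47.08% with a mean of at least 50 counts, 48.72% without a fold minimum, 48.0% in the fit of the 6 compared libraries, and 42.96% to 46.12% without 1 library. The difference between SKG and WT was called for 464 genes, for 278 at an adjusted p under 0.05 and for 296 to 537 without 1 library. The cause of these shifts was not tested, apart from the number of genes tested or the threshold itself.

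Of 3985 alternative values of 250 genes, 3893 kept direction and call, 80 lost the call, 8 gained it and 4 changed sign. The 4 belong to Gata3, whose log2 fold change is near 0 (-0.12 to 0.13 without 1 library). Counts and medians of the lists moved in 106 of 1488 values.

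The replicate block was given by a token that titles share across subsets. Deviations of same-token NKT1 and NKT17 libraries correlated at 0.19, -0.01 and 0.16, and replicate 2 did not correlate best with its own number. The rule set for pairing was thus not met, and the main fit has no block. Same-token libraries within a genotype did match in Xist and Y-linked genes, and the summed early genes ranked the replicates alike in every WT subset. Same-token libraries of different genotypes did not always match. SKG replicate 2 carries the token of WT replicate 3, but held Xist at 284 to 333 CPM, against 0 to 0.177 CPM. In SKG the same 8 genes summed lowest under the token of WT replicate 2 (2407 CPM in NKT1 and 3210 CPM in NKT17). Their sums were highest under the token of WT replicate 3 (4303 and 5377 CPM). These rankings were not tested. Whether the token pairs the samples is not stated by the labels and was not settled here. With the replicate block 2513 genes were called, beside 2420 in the same 9 WT libraries without it. Under the block Gata3 was at 0.0086 and Fos was called (edgeR adjusted p 9.34e-06). Depth of 4391029 to 8895917 counts and 3 libraries a group limit calls for genes near the floor.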
